A study of Mus musculus with 5 samples.

Results

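Sites of 7 matched bases in 3′ untranslated regions (3′UTRs) that were listed in the Ago maps of all 5 stages of mouse liver development are described here. They were chosen by their listing alone: the same chromosome, start, end, strand and miRNA, a seed type of 7mer-m8 or 7mer-A1, and a 3′UTR among the listed regions, in each of 5 tables of miRNA-target interactions. A site is listed when it has at least 5 reads, so the read numbers of all 5 tables took part in the choice and are given as a description, with no test. Of 197513 such combinations of position and miRNA listed in any table, 1431 (0.725%) were listed in all 5. Because several miRNAs share a seed, these 1431 came to 874 distinct positions out of 148761 (0.588%), and the positions are the unit used below. They carried seed matches of 281 miRNAs with 212 different seeds.

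The livers were from C57BL/6 mice (C57BL/6J in the methods) of the embryonic stages e12.5, e15.5 and e18.5 (days of gestation), of postnatal day 7 (P7) and of 6 to 8 weeks (adult). Where 5 read numbers are given for a site below, they run from e12.5 to adult. In Ago HITS-CLIP the tissue is crosslinked with ultraviolet light, here 3 times with 254 nm light at 0.2 J/cm2, and RNA held by Ago proteins is recovered with antibodies and sequenced. Ago2 was precipitated from all livers, and from the P7 and adult livers Ago1 as well, so antibody and stage cannot be told apart for the comparison of embryonic with later livers. The labels give 1 sample per stage, while the methods name 2 biological replicates for Ago2, and no difference between stages has a check over labelled replicates. The sum of the highest read number of each 3′UTR cluster, a cluster being a group of overlapping reads, was 5836060, 2680953, 2168803, 1682643 and 1116654 by stage. Scaled reads are read numbers per 1000000 of this sum. In whole liver, fewer cells of a type and less RNA per cell cannot be told apart. All 8 hepatocyte markers had a listed 3′UTR site at every stage except Fgb in adult liver, and their summed scaled reads ranged from 714 at e12.5 to 15960 at P7. The 8 erythroid markers, the globins among them, summed to 441541 scaled reads at e12.5 and 32231 in adult liver, where Slc4a1, Alas2 and Klf1 were among those with no listed site. Of 5 macrophage markers between 0 and 3 were listed, and of 6 endothelial markers between 3 and 6. The part of this change in cell makeup in the site values below was not tested.

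Ago proteins hold a miRNA so that the seed near its 5′ end is exposed to pair with an mRNA, for instance in its 3′UTR, and the bound mRNA is repressed or degraded. A 7mer-m8 site pairs with bases 2 to 8 of the miRNA, a 7mer-A1 site pairs with bases 2 to 7 and has an A opposite base 1, an 8mer has both features and a 6mer has neither. In liver, miR-122 is the miRNA typical of hepatocytes, while miR-144 and miR-451a belong to the erythroid lineage, for which the fetal liver is a major organ.

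Mature sequences of miRNAs other than miR-122-5p that had many of the sites, or a site of large change, show how their seeds relate. They are from RefSeq (GRCm38.p6), where 250 of the 281 miRNAs were found, and capitals mark the seed, bases 2 to 8.
miR-144-3p: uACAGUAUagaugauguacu
miR-101a-3p: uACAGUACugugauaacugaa
miR-101b-3p: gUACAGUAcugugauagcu
miR-582-5p: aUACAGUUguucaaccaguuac
miR-15a-5p: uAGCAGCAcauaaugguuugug
miR-103-3p: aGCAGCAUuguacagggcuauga
miR-27a-3p: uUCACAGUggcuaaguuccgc
miR-128-3p: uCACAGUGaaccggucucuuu
miR-30a-5p: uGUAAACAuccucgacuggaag
miR-30f: gUAAACAUccgacugaaagcuc
miR-26a-5p: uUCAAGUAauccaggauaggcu
let-7a-5p: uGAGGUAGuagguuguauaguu
miR-125a-5p: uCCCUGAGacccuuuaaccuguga
The seeds of miR-144-3p, miR-101a-3p, miR-101b-3p and miR-582-5p are shifted or altered versions of one another, as are those of miR-27a-3p and miR-128-3p and of miR-30a-5p and miR-30f. A single stretch of mRNA can therefore be listed under several miRNAs, and the read number does not say which of them guided Ago.

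The following 25-base windows hold the sites whose values carry the results. They are read from GRCm38 in the direction of the mRNA. Capitals mark the bases paired with the seed and, in a 7mer-A1, the A opposite base 1. The positions are the 7 bases opposite bases 2 to 8 of the miRNA, counted from 1 on mm10, so in a 7mer-A1 the capitals end 1 base further downstream. The first 8 windows match miR-122-5p.
Hnrnpl, chr7:28820646-28820652, plus strand: aacaatcggttctcCACTCCAgagc
Adam10, chr9:70778141-70778147, plus strand: cagtgggaaaacttCACTCCAaaga
Plxnb2, chr15:89155790-89155796, minus strand: tcgtggggcgcaggCACTCCAggtg
Ctdsp2, chr10:126998679-126998685, plus strand: caggtgtcagcatcCACTCCAagcc
Col18a1, chr10:77052634-77052640, minus strand: ctctcctgcagccACACTCCctgcc
Rxra, chr2:27760210-27760216, plus strand: atgccctgagatatCACTCCAagca
Hnf4a, chr2:163572099-163572105, plus strand: tccttggccactctCACTCCAgtgc
Insig1, chr5:28077586-28077592, plus strand: aattgtgtctctgtCACTCCAgggt
The next 7 match miR-144-3p (Suclg1, Tmbim6, Atp1b2 and Nsd1) or miR-101b-3p (Skp1a, Herpud1 and Piezo1).
Suclg1, chr6:73260578-73260584, plus strand: ttgcccgtctttaATACTGTgaagg
Tmbim6, chr15:99409960-99409966, plus strand: cgttctctaactcATACTGTgaaga
Atp1b2, chr11:69599792-69599798, minus strand: gcctgtgtcagatcTACTGTAaaaa
Nsd1, chr13:55318294-55318300, plus strand: atatagaaaaaaatTACTGTAaagt
Skp1a, chr11:52246035-52246041, plus strand: ctgctgtgcctgtcACTGTAAcact
Herpud1, chr8:94394994-94395000, plus strand: gtagtttcataggcACTGTAAgcag
Piezo1, chr8:122481751-122481757, minus strand: cccttcccacaagTACTGTAgggtt
The last 8 match miR-15/16 (Itgb1 and Clu), let-7 (Pkn2 and Arid3a), miR-26 (Ttpa, Mcl1 and Ankrd11) and miR-125 (Foxq1).
Itgb1, chr8:128733006-128733012, plus strand: ctgtaagctgtccTGCTGCTtgcag
Clu, chr14:65981481-65981487, plus strand: taatgcctgcactTGCTGCTctcgg
Pkn2, chr3:142792614-142792620, minus strand: taacactaaagctgTACCTCAaaag
Arid3a, chr10:79954737-79954743, plus strand: aaaaaactgttttCTACCTCtggtc
Ttpa, chr4:20028787-20028793, plus strand: atattcctgtttgaACTTGAAgagc
Mcl1, chr3:95660907-95660913, plus strand: atttatgaaggtggACTTGAAgctg
Ankrd11, chr8:122883526-122883532, minus strand: tttctgagaaggtaACTTGAAacac
Foxq1, chr13:31560486-31560492, plus strand: aaaagaaaaatacaTCAGGGAacca
The windows of Atp1b2, Nsd1 and Piezo1 carry the same capitals although Piezo1 is printed as a site of miR-101b-3p, which is the seed overlap noted above.

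The longest seed matches were the most often listed at every stage. For 8mers in 3′UTRs, 833 of 41615 sites (2.0%, 95% Wilson interval 1.87 to 2.14) were listed in all 5 tables. The share was 0.713% (0.666 to 0.763) for 7mer-m8 and 0.740% (0.684 to 0.801) for 7mer-A1, whose intervals overlap, and 0.550% (0.522 to 0.579) for 6mers. The 7mers listed in every table consisted of 820 7mer-m8 and 611 7mer-A1. These intervals cover counting error only. Sites of 1 cluster share their reads, and neither sites nor positions are replicates.

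**Figure D1:**
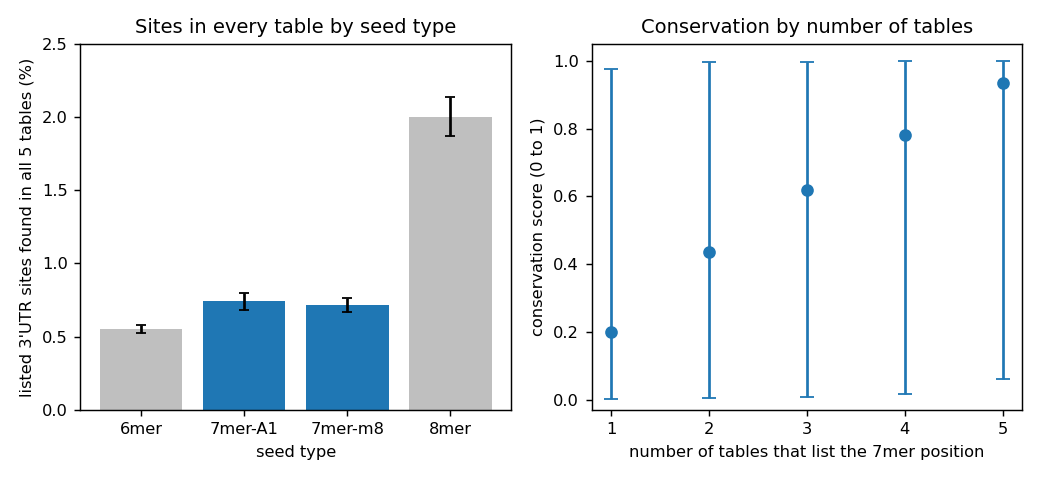
Left, the percentage of listed 3′UTR sites of each seed type found in all 5 tables, with 95% Wilson intervals as bars and the 7mers in blue. The 8mers stand at 2.0% and the 3 shorter types between 0.550% and 0.740%. Right, the conservation score of 7mer positions by the number of tables that list them, with the median as a point and the quartiles as bars, rising from 0.199 for 1 table to 0.936 for 5.

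Most 7mer sites, 151734 of 197513, were listed in 1 table only, 30025 in 2, 9871 in 3 and 4452 in 4. Of those just outside, in 4 tables, 2532 (56.9%) were missing from adult liver, the table with the smallest sum of 3′UTR cluster reads. Another 812 were missing from e15.5, 505 from e18.5, 311 from e12.5 and 292 from P7. Just inside, 32 of the 874 positions had the lowest listed number of 5 reads in some table, 18 of them at e18.5. An example is the miR-101b-3p position of Erlec1, a lectin of the endoplasmic reticulum, with 88, 430, 5, 22 and 66 reads from e12.5 to adult. At least 20 reads in every table were found at 474 positions (54.2%). Because 5 reads equalled 0.857 scaled reads in the e12.5 table and 4.48 in the adult table, the rule was stricter for the latter.

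The 874 positions formed 590 stretches of overlapping or adjoining sites in 508 clusters of the adult table. A 3′UTR was the only listed region at 586 positions (67.0%), while 163 were also listed under a coding sequence and 68 under an intron. A single gene symbol was given for 822 positions, which came to 411 genes, and 104 of these genes held more than 1 stretch. Of the 718 positions that lay in an annotated 3′UTR, the median distance from the stop codon was 519 nt, against 678 nt for 7mer positions of 1 table. Within 500 nt of the stop codon were 49.3% of them, against 41.1% of the positions of 1 table. Within 500 nt of the 3′UTR end were 32.9%, against 28.3%. The A+T content of the 30 nt on either side had a median of 51.7% for both groups.

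A few positions held reads that need not come from an mRNA target. The position with most reads, 98898 in the e12.5 table and 431803 in the adult table, was listed under the 3′UTR of Vmp1 and lay on miR-21a-5p itself, whose gene Mir21a overlaps that 3′UTR. In all, 5 positions, those of Mir21a and Vmp1 and of Mir324 and Dvl2, lay on a miRNA gene, and mRNA and miRNA reads cannot be told apart there. The 3′UTRs of Hba-a1 and Hba-a2, the alpha-globins, each held 1 position in an identical sequence, with the same 33373, 27081, 14969, 1902 and 173 reads in the order of the stages. The same was so for Mfap1a and Mfap1b. Their reads cannot be assigned to 1 of the copies.

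Every known mouse miRNA was searched for by the authors, so many listed matches belong to scarce miRNAs. A miRNA was called abundant when it was among the 100 with most reads in every table, which was so for 61 miRNAs with 39 seeds. Matches of an abundant miRNA were found at 282 of the 874 positions (32.3%, 29.2 to 35.4), against 14946 of all 148761 7mer positions (10%). Of the 592 other positions, 213 (36.0%) shared at least 5 bases with a listed site of an abundant miRNA, against 9.09% of all 7mer positions without an abundant miRNA. Counted by seed, 284 of 15111 sites of abundant miRNAs (1.88%, 1.67 to 2.11) and 617 of 137968 sites of other seeds (0.447%, 0.413 to 0.484) were in all 5 tables. The rule asked for the same miRNA in every table, so a miRNA without entries in some table could have no site. Abundant miRNAs had entries in all 5 by definition, and the part of this in the differences was not tested.

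Positions listed at more stages had higher conservation scores. The score, deposited for each site and running from 0 to 1, was not used by the selection. Its median was 0.199 for 7mer positions of 1 table, 0.435 for 2, 0.619 for 3, 0.781 for 4 and 0.936 for all 5 (95% interval 0.87 to 0.971). The score was exactly 1 at 292 of the 874 positions, above 0.9 at 453 (51.8%) and below 0.1 at 234 (26.8%). The order held among positions with 5 to 49 reads at e12.5, where the median rose from 0.222 for 1 table to 0.83 for 5. It held as well with at least 200 reads at e12.5, from 0.36 to 0.956. For positions of abundant miRNAs the median rose from 0.401 to 0.938, and for the others from 0.181 to 0.934.

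The median position had 176.5 reads, 91, 108.5, 94 and 56 by stage. As scaled reads the medians were 30.2, 33.9, 50.03, 55.9 and 50.1. The highest scaled value was in the adult table for 263 positions (30.1%), at P7 for 235, at e18.5 for 141, at e15.5 for 136 and at e12.5 for 99. The sum used for scaling holds the Mir21a cluster, whose position had 431803 reads in adult liver, against a sum of 1116654. At e12.5 it had 98898 reads, against a sum of 5836060. Globin clusters are in the sum as well, and stages of the highest value were not counted without these clusters. From e12.5 to adult liver, scaled reads were at least 4-fold higher at 293 of the 874 positions (33.5%), against 44.0% of all 4760 7mer positions listed in both of these tables. They were at least 4-fold lower at 110 (12.6%), against 4.31%. The median log2 change of scaled reads was 1.03 (0.80 to 1.24), against 1.73 over all 4760. To be among the 874, a position had to be listed in the 3 tables between as well, and the part of this in the gap was not tested.

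The direction of the median depended on the scaling. Without scaling the median log2 change was -1.36, per 1000000 cluster reads of all regions it was -0.51, and per 1000000 reads of the library it was -0.20. These alternatives lower the change of every position by the same amount, so they cannot move the gap to all 7mer positions, which was -0.70. For the same reason a position lower in scaled reads is lower under all 4 scalings, and a position is higher under all 4 when it is higher without scaling. Higher under all 4 were 229 positions (26.2%), against 35.7% of all 4760, and lower 314 (35.9%), against 20.7%. A rise of at least 4-fold without scaling was found at 83 of the 874 positions and at 433 of all 4760, nearly the same share, so the lower share of large rises among the 874 was seen in scaled reads and not without scaling.

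Each embryonic table consists of 2 lists, and the reads of both were added. The labels do not describe the lists, and whether they are biological replicates is not known. The sample list given with the methods names a second sample for e18.5 and none for e12.5 or e15.5. Between the lists of e12.5, the log2 ratio of scaled reads had an SD of 1.77 over 446 positions found in both. The SD was 2.65 at e15.5 (243 positions) and 1.47 at e18.5 (530 positions). A difference of at least 4-fold between the lists was found at 111 of these positions for e12.5 (24.9%), 113 for e15.5 (46.5%) and 82 for e18.5. Changes between stages of this size at a single site are therefore within the spread seen inside a table. The change to adult liver had the same sign from either e12.5 list at 319 of 446 positions (71.5%). The median log2 change over these 446 was -0.66 from the first list and 0.30 from the second, so its direction turned with the list. From both lists, 45 positions were at least 4-fold higher in adult liver and 69 at least 4-fold lower. The same count from both lists was not made over all listed positions. Whether these 446 differ from them in this respect was therefore not tested.

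**Figure D2:**
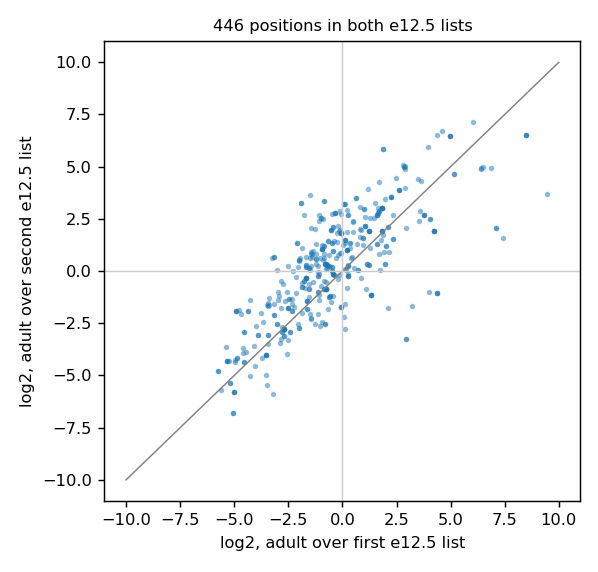
Each point is 1 of the 446 positions found in both lists of the e12.5 table, with the log2 ratio of scaled reads in adult liver to the first list on the x axis and to the second list on the y axis. The diagonal marks equal values, and 71.5% of the points have the same sign on both axes.

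Among sites of abundant miRNAs, 8 were named for the highest scaled value in their lowest table. Pfn1, which encodes the actin-binding protein profilin, had 3310, 1701, 3248, 3047 and 172 reads at its site of the seed that miR-103 shares with miR-107. Actb, the cytoplasmic actin, had 870, 1265, 589, 886 and 164 at its miR-194-5p site. The adult table held the lowest read number for both.
Skp1a, an adaptor of SCF ubiquitin ligases, had 3246, 648, 2281, 1194 and 146 reads at its miR-101b-3p site. Itgb1, the integrin beta-1 subunit, had 3149, 872, 703, 242 and 90 at a miR-15/16 site. Both had their highest raw read number at e12.5 and their lowest in adult liver. Eif4g2, a translation initiation factor, had 2296, 1108, 311, 228 and 225 reads at its site of the miR-17/20/93 seed. As scaled reads its site was highest at e15.5, while that of Itgb1 was highest at e12.5 and lowest in adult liver.
Hnrnpl, a splicing factor, had 1143, 480, 583, 1315 and 749 reads at its miR-122-5p site. Suclg1, a subunit of succinyl-CoA ligase in the mitochondrial citric acid cycle, had 1174, 404, 718, 345 and 838 at its miR-144-3p site. Of the 8, these were the ones with a positive log2 change of scaled reads, 1.78 and 1.90, and from each e12.5 list alone the change was 1.86 and 1.73 for Hnrnpl and 1.83 and 1.94 for Suclg1.
Lars2, the mitochondrial leucyl-tRNA synthetase, had 4579, 501, 520, 482 and 867 reads at a miR-199-3p site with a conservation score of 0. Its e12.5 reads were unevenly divided, 3845 in the first list and 734 in the second, so the log2 change to adult liver was -1.26 from one and 1.99 from the other. Whether the reads at this site came from Lars2 mRNA was not tested.

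The 6 largest rises of scaled reads among sites of abundant miRNAs with at least 20 reads in every table were in Foxq1, Clu, Plxnb2, Ttpa, Ctdsp2 and Col18a1. The other scalings lower a change by at most 2.39, so all 6, chosen as the largest rises, were bound to remain higher under the 4 scalings. Foxq1, a forkhead transcription factor, had 20, 175, 1622, 634 and 1734 reads at its miR-125 site, a log2 change of 8.82. The 20 reads at e12.5 were all in the second list. A miR-122-5p site of Foxq1, 9 nt further from the stop codon, was listed with the same read numbers.
Clu, the secreted chaperone clusterin, had 25, 116, 289, 1242 and 832 reads at its miR-15/16 site (log2 change 7.44). Ttpa, which helps hepatocytes export vitamin E, had 43, 25, 278, 353 and 917 at its miR-26 site (6.80). The other 3 sites matched miR-122-5p, and each had its highest or second highest scaled value in adult liver.
Plxnb2, a semaphorin receptor, had 67, 55, 467, 1240 and 1609 reads (6.97). Ctdsp2, a phosphatase of the RNA polymerase II tail, had 107, 301, 840, 1785 and 1108 (5.76). Col18a1, a basement membrane collagen, had 61, 245, 153, 134 and 580 (5.64). Of the 6 sites, Ctdsp2 alone had reads in both e12.5 lists, and its change was 4.98 from the first list and 6.47 from the second.

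The 6 largest falls by the same rule were in Pkn2, Piezo1, Ankrd11, Mcl1, Atp1b2 and Nsd1. Each was lower in adult liver from both e12.5 lists. Pkn2, a protein kinase, had 3448, 1689, 864, 2322 and 30 reads at a let-7 site, a log2 change of -4.46. Its decline lay between P7 and adult liver, since the P7 table held its highest scaled value.
Piezo1, a mechanosensitive ion channel, had 1733, 197, 212, 37 and 25 reads at its miR-101b-3p site (-3.73). Ankrd11, a chromatin regulator, had 1053, 552, 378, 331 and 21 at its miR-26 site (-3.26). Mcl1, an inhibitor of apoptosis, had 973, 252, 143, 33 and 24 at its miR-26 site (-2.96). Ankrd11 kept its scaled level until P7, while Piezo1 and Mcl1 had reached their low level by P7.
Atp1b2, a subunit of the sodium pump, had 965, 1100, 209, 62 and 25 reads (-2.88), and Nsd1, a histone methyltransferase, had 784, 323, 189, 154 and 22 (-2.77), both at sites of miR-144-3p and miR-101a-3p. Sites of miR-26 were thus found both among the largest rises, in Ttpa, and among the largest falls.

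**Figure D3:**
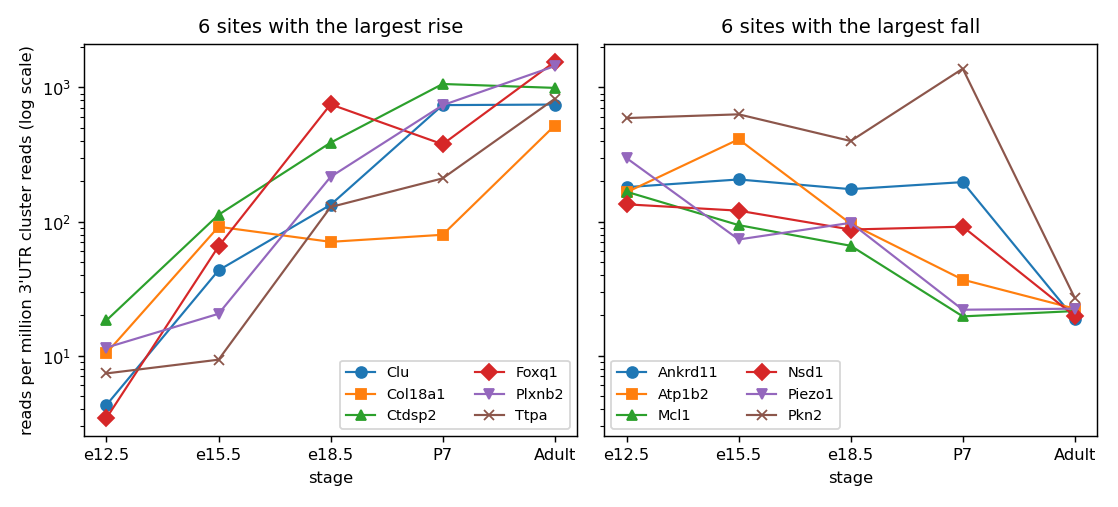
Scaled reads (log axis) of the 6 sites with the largest rise and the 6 with the largest fall by stage, 1 line per site, from 1 table per stage. The risers start between 3.43 and 18.3 scaled reads at e12.5, and the fallers end between 18.8 and 26.9 in adult liver.

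miR-122-5p had more positions listed at all stages than any other abundant seed, and their median scaled reads were higher at each later stage, before birth as well as after it. Of its 572 listed 7mer positions, 34 (5.94%, 4.28 to 8.19) were in all 5 tables, each in its own stretch, 25 of them as 7mer-A1. Their median scaled reads were 17.3, 20.3, 90.8, 155.1 and 257.9 by stage. The share of miR-122-5p among miRNA reads was 1.44%, 4.33%, 9.20%, 12.3% and 11.2% by stage. Scaled reads were at least 4-fold higher in adult liver than at e12.5 at 23 of the 34 positions and at least 4-fold lower at none, against 44.0% and 4.31% of all 4760 7mer positions. The median log2 change was 4.03, and 1.65 without scaling, so it stayed above 0 under the 4 scalings. It was 1.86 from the first e12.5 list (19 positions) and 3.597 from the second (32 positions).
These positions had low conservation scores, with a median of 0.169, against 0.936 for the 874. The median was 0.019 over all 572 positions, and 10 of the 34 had a score above 0.9 and 14 below 0.1.
Low scores were found in Plxnb2 and Col18a1 (0) and in Hnf4a and Rxra (0.001). Adam10, a membrane protease, had a score of 1 and 455, 115, 184, 433 and 157 reads. Ugdh, which makes UDP-glucuronate, had a score of 0.887 and 213, 14, 432, 895 and 1680 reads.
Lower scaled reads in adult liver were found in Il1rn, an interleukin-1 receptor antagonist, with 207, 47, 28, 379 and 11 reads, and Nol4l, with 276, 191, 229, 15 and 24. The 34 positions thus did not all move in 1 direction. Mfap1a and Mfap1b count as 2 of them and share their reads.

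**Figure D4:**
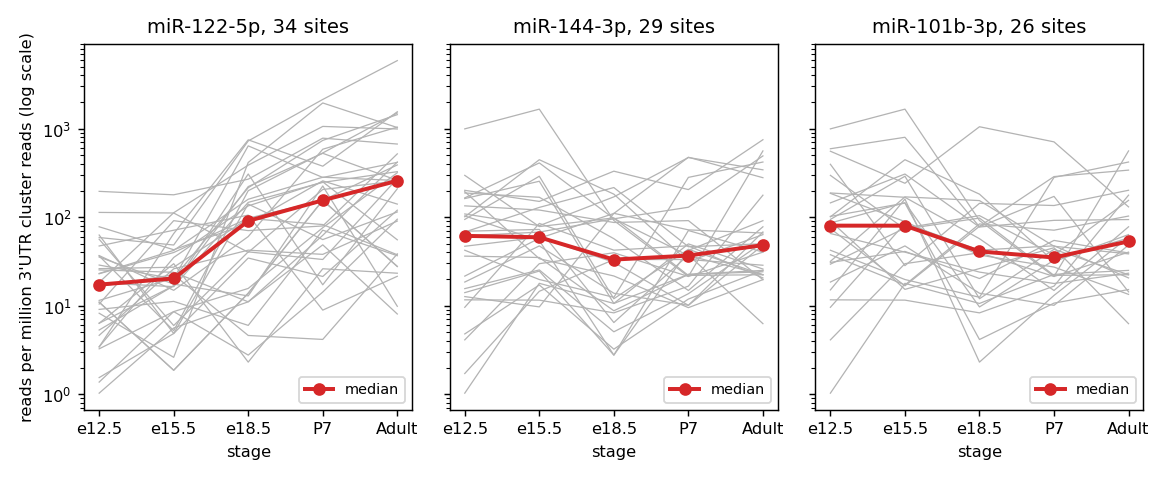
Scaled reads (log axis) by stage for positions of miR-122-5p, miR-144-3p and miR-101b-3p listed in all 5 tables, with 1 grey line per position and the median in red. The miR-122-5p median goes from 17.3 at e12.5 to 257.9 in adult liver, and the other medians stay between 33.2 and 80.3.

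miR-144-3p came next among abundant seeds, followed by miR-101b-3p and the miR-15/16 seed, level at 26 positions. Those of miR-144-3p and miR-101b-3p lay partly on the same stretches. miR-144-3p had 29 of 684 positions (4.24%, 2.97 to 6.02) and miR-101b-3p 26 of 749 (3.47%, 2.38 to 5.04). The 2 shared 11 stretches, 37.9% of those of miR-144-3p and 42.3% of those of miR-101b-3p. The median conservation score was 1 for both, with 19 and 16 positions above 0.9.
The share of miR-144-3p among miRNA reads fell from 21.7% at e12.5 to 1.54% in adult liver, a log2 change of -3.82. The median log2 change of its positions was 1.10, close to that of the 874 positions, and it was below 0 under the other 3 scalings, down to -1.28 without scaling. Higher under all 4 were 7 of the 29 positions and lower 13. For the 874 the shares were 26.2% and 35.9%, and for all 4760 7mer positions 35.7% and 20.7%. The median scaled reads of the miR-144-3p positions went from 61.5 at e12.5 to 48.4 in adult liver. The median change was -0.78 from the first e12.5 list and 0.47 from the second, so its direction turned with the list as well. Its highest named sites, Suclg1 and Tmbim6, a protein of the endoplasmic reticulum membrane that inhibits cell death, had higher scaled reads in adult liver. Tmbim6 had 635, 215, 368, 795 and 383 reads, and neither kept its direction without scaling.
The share of miR-101b-3p rose from 0.101% to 0.617%, a log2 change of 2.61, while the median of its positions was -0.59, and -1.41 and -0.32 from the first and the second e12.5 list. Lower under all 4 scalings were 14 of 26, higher 5, against 35.9% and 26.2% of the 874. Herpud1, a protein of endoplasmic reticulum stress, had 847, 824, 168, 155 and 105 reads.

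The miR-15/16 seed had 26 of 1222 positions (2.13%), miR-27 24 of 948 (2.53%), miR-30 18 of 466 (3.86%), miR-103 16 of 666 (2.402%) and miR-26 15 of 636 (2.36%). The median log2 changes of their positions were 0.62, 1.28, 1.75, 0.75 and 1.66, and for each the median was below 0 without scaling. For miR-15/16 and miR-103 it was below 0 under the other 2 scalings as well (-0.92 and -0.61 for miR-15/16, -0.79 and -0.48 for miR-103), and for miR-27 per cluster reads of all regions (-0.26). For miR-15/16 the median was also below 0 from the first e12.5 list, at -0.85 over 13 positions, and 0.60 from the second over 26. A conservation score above 0.9 was found at 51.8% of the 874. It was found at 11 of the 26 miR-15/16 positions, 16 of 24 for miR-27 and 8 of 18 for miR-30. For miR-103 it was 10 of 16 and for miR-26 8 of 15.
A second highly read miR-15/16 site was in Mtmr3, a phosphoinositide phosphatase, with 2242, 1075, 715, 99 and 73 reads. Like Itgb1, it had lower scaled reads in adult liver. Of the 26 positions of this seed, 10 were lower under all 4 scalings and 6 higher, shares near the 35.9% and 26.2% of the 874.
let-7 had 10 of 494 positions (2.02%) and a median change of 2.23, or -0.15 without scaling, while its share of miRNA reads rose from 2.45% to 22.4%. Of these 10, 6 were at least 4-fold higher, against 44.0% of all 7mer positions. Pkn2 was the one at least 4-fold lower, against 4.31%. Under all 4 scalings 3 of the 10 were higher and 3 lower. miR-199-3p had 8 positions with a median of -1.84, none of them at least 4-fold higher, and miR-142a-3p had 8 with a median of -1.15. miR-126a-3p had 4 of 39 positions (10.3%).
Seeds of miRNAs that were not abundant also had many positions. miR-582-5p had 24 and miR-128-3p had 22, of which 23 and 20 shared at least 5 bases with a site of an abundant miRNA. miR-3068-5p had 17, of which 6 stretches, 35.3%, were shared with miR-122-5p, and the median change was 3.77.

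Across the 16 abundant seeds with at least 5 positions, which held 254 positions, the change of the miRNA and the median change of its positions showed little relation. Pearson's correlation was 0.13 and Spearman's 0.11. The points share the same tables and some of their positions, so these are descriptions.

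**Figure D5:**
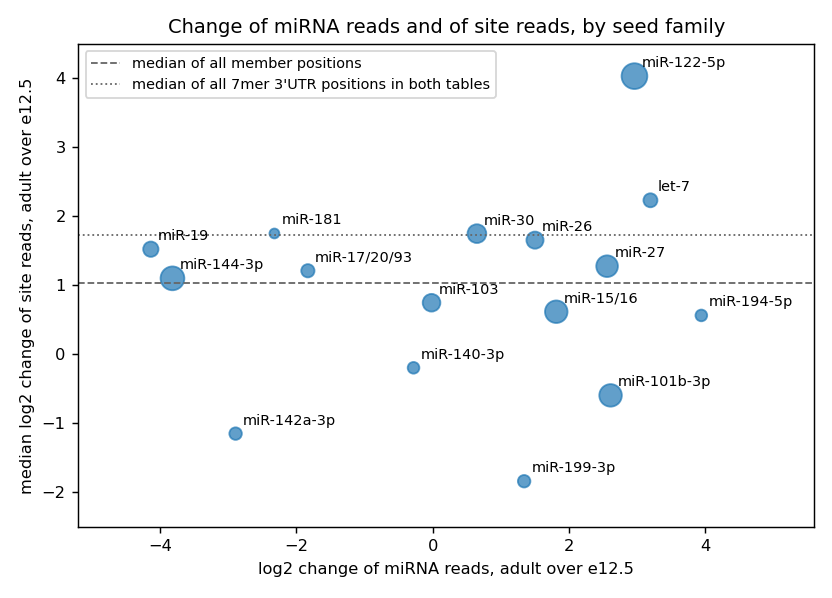
Each point is 1 of 16 seeds of abundant miRNAs, with its area in proportion to the number of positions. The x axis shows the log2 change of the summed share of its miRNAs among miRNA reads, with 1 read per 1000000 added, and the y axis the median log2 change of scaled site reads, both for adult over e12.5. miR-122-5p lies highest at 4.03, and miR-144-3p lies at -3.82 and 1.10. The lines mark the medians of the 874 positions (1.03) and of all 7mer positions in both tables (1.73).

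Genes were also counted by list, as the number with a position in all 5 tables out of those with any listed 7mer 3′UTR site. Over all genes this was 455 of 10594 (4.29%). The median log2 change of a list is over its positions among the 874, whose own median was 1.03. Positions of 1 cluster share their reads and count separately, so some of these medians rest on few clusters. Hbb-bs had 5 positions in 1 cluster of the adult table, Rxra 4 in 1 and Foxq1 3 in 1. Without scaling, which lowers every change by 2.39, the medians of plasma proteins and of hepatocyte transcription factors stayed above 0 and those of all other lists given here were below 0. Plasma proteins secreted by the liver had 7 of 29 genes (24.1%), with a median log2 change of 4.83. They were Ahsg, Apoa1, Apob, Cfb, Fgg, Trf and Ttr. Ttr, which carries thyroid hormone, had 19, 157, 121, 283 and 371 reads at its miR-192/215 site, lowest at e12.5 and highest in adult liver.
Hepatocyte transcription factors and nuclear receptors had 3 of 21, with a median of 7.90. Besides Foxq1, these were Rxra, the partner of many nuclear receptors, with 48, 7, 901, 3286 and 1150 reads, and Hnf4a with 9, 13, 75, 36 and 134. All 3 had a miR-122-5p site with at most 48 reads at e12.5. Hepatocyte marker reads rose over the same stages, and their part in these values was not tested.

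Lipid and glucose metabolism had 8 of 32 genes (25%), with a median of 2.35, just below 0 without scaling, and values in both directions. Insig1, which holds back sterol synthesis, had 168, 54, 1387, 473 and 465 reads at its miR-122-5p site (3.85). Fasn, the fatty acid synthase, had 306, 23, 286, 13 and 17 at a miR-27 site (-1.78). Hmgcs1, an enzyme of cholesterol synthesis, had 952, 483, 552, 75 and 102 at a miR-451a site (-0.84). Insig1 was higher without scaling as well. The others included Bcat2, Lpin2, Scarb1 and Ugdh.
Erythroid genes had 5 of 22, Hba-a1, Hba-a2, Hbb-bs, Nfe2 and Slc25a37, with a median of -4.69 and no match of an abundant miRNA. Hbb-bs, an adult beta-globin, had between 40314 and 45648 reads at e12.5 and between 319 and 461 in adult liver at its 5 positions. The erythroid marker list holds the same globin genes, so its fall is no separate measurement.

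The miRNA machinery had 3 of 22 genes, with a median of -0.96. Tnrc6a and Tnrc6b encode GW182 proteins, which link Ago to mRNA decay, and Ddx6 is an RNA helicase. Tnrc6a had 27, 34, 6, 26 and 17 reads at its miR-30 site, and Tnrc6b had 152, 62, 24, 116 and 15 at its miR-19 site, both with a score of 1. Scaled reads in adult liver were lower for Tnrc6b and higher for Tnrc6a.
The oncofetal let-7 targets had 4 of 25 genes, Arid3a, Cdc34, Dusp1 and Hmga1, with a median of 2.36, just below 0 without scaling. Arid3a, a DNA-binding protein, had 6, 37, 350, 173 and 48 reads at its let-7 site. Cdc34, a ubiquitin-conjugating enzyme, was listed through a miR-140-3p site, with 608, 22, 90, 16 and 62 reads. Their highest scaled values were at different stages, e18.5 for Arid3a and e12.5 for Cdc34.

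Cell cycle genes had 3 of 31, the cyclins Ccna2, Ccnd3 and Ccne2, with a median of -3.11 and no abundant miRNA. Ccne2 had 3543, 3159, 1422, 1971 and 21 reads, and was lowest in adult liver. RNA binding and splicing had 3 of 39 (Hnrnpk, Hnrnpl and Qk, median 1.67, below 0 without scaling), and TGF-beta and BMP signalling 2 of 23 (Smad4 and Tgfbr1, median -3.72). The Hippo pathway had 1 of 25, Nf2, with no abundant miRNA. Collagen and matrix genes had 0 of 19 in this list, which does not hold Col18a1.

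Btg2, an antiproliferative gene, held the most stretches of any gene and was chosen for this after its values were seen. Its 11 positions lay in 7 stretches and 6 clusters of the adult table, between 32 and 1856 nt after the stop codon. Its let-7 position had 210, 102, 155, 306 and 29 reads and a score of 1, and its miR-103 position, 26 nt upstream, had 155, 223, 160, 189 and 72. Lars2 followed with 8 positions in 6 stretches, all with a score of at most 0.004, and whether their reads came from its mRNA was not tested.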

How the data were processed

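For each stage, 1 deposited table of Ago HITS-CLIP was used. The authors cleaned the reads with FASTX-Toolkit and used Bowtie to map them to mm10 and to the precursors in miRBase. They joined overlapping reads into clusters, searched these for seeds of known mouse miRNAs and annotated them from UCSC refGene and Ensembl. Tool versions are not given in the sources used here, and the submitters' processing notes also name mm9. The deposited read number is a signal, the highest number of reads in the target or peak, and is not scaled. Its header reads target in the e12.5 file and peak in the others, and these were treated as the same measure. The deposited conservation is a fraction from 0 to 1 by an unstated method. The deposited free energy is a score and was not used for any result.

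Start positions were raised by 1 to count from 1. On GRCm38.p6, 0 of the 874 windows lacked their seed match. Repeated entries of a site were reduced to the highest read number, and the 2 lists of each embryonic table were added. The whole number in each interaction name was used as its miRNA read count, although the tables do not say so. Reads were scaled per 1000000 of the summed highest read numbers of 3′UTR clusters, and 4-fold was the limit for a counted change. No test between stages was made, since each has 1 table. Shares have Wilson 95% intervals and medians have 95% intervals from binomial order statistics, both for counting error only. Reads carry no molecular identifiers, and tables hold only clusters with a site.

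The members, the gene lists and the tests were chosen with earlier results of these data known. Named sites, 1 per gene, were among matches of the 100 most abundant miRNAs of every table with 1 gene symbol: the 8 with the highest lowest scaled value, the 6 largest rises and 6 largest falls with at least 20 reads in every table, the 2 highest of the 4 seeds with most sites, and up to 3 per gene list. The alternatives were other scalings, read minimums of 10 and 20, other limits for abundant miRNAs, the 3′UTR as only region, either or both lists, and leaving out each table. The selection and the counts were tested on simulated data. Python 3.11.15, numpy 2.4.6, pandas 2.3.3, scipy 1.17.1, pysam 0.24.0 and matplotlib 3.10.9 were used. Some genes and 1 gene list are not reported here.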

Additional observations from a re-analysis of the deposited data

How the results depend on the processing

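The number of sites in all 5 tables was 1431 as deposited, 761 with at least 20 reads in every table, and 260 when a site had to be in both lists of every embryonic table. Counted by position whatever the miRNA it was 894, and as stretches of adjoining sites 590. Leaving out 1 table raised it to between 1723 and 3963. It was 3963 without the adult table and 2243 without e15.5. The median log2 change from e12.5 to adult liver reversed from 1.03 to -1.36 without scaling, to -0.51 per 1000000 cluster reads of all regions and to -0.20 per 1000000 reads of the library. It was 1.28 with the higher of the 2 lists in place of their sum. Over the 446 positions in both e12.5 lists, the median was -0.66 from the first list and 0.30 from the second, so the sign depended on the list as well as on the scaling. The gap to all 7mer positions, which no scaling can move, was -0.70, and it was -0.62 with at least 20 reads and -0.50 with the higher of the 2 lists. The share of positions with an abundant miRNA was 32.3%, 21.3% with the 50 most abundant miRNAs, 54.6% with the 100 most abundant of any table, and 56.6% when any site of an abundant miRNA sharing 5 bases counted. The median conservation score stayed between 0.934 and 0.952. Counting stretches, sharing 5 bases, leaving out miRNA and alpha-globin clusters from the total (0.93) and leaving out sites on a miRNA gene (1.03) were chosen after seeing the data. No paired analysis was possible because each stage has 1 table and the labels give no replicate numbers. A single site with few reads is limited by depth, and the cause of its absence from a table was not tested.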
